A study of Homo sapiens with 5 samples.

Results

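Cell cycle genes were examined by RNA-seq in TOV21G, a cell line of ovarian clear cell carcinoma that carries an ARID1A mutation, and in clones of it that had become resistant to the EZH2 inhibitor GSK126. The set held 54 genes of S phase and mitosis out of 30476 genes in the deposited table. They were chosen by name, though with earlier results of these data known, and all 54 were found by their Ensembl identifiers. EZH2 is the histone methyltransferase of the PRC2 complex, and the EZH2 inhibitor-resistant (EIR) clones were picked after stepwise selection in GSK126 from 5 to 20 uM. The 5 libraries were 1 of parental cells left untreated, 1 each of untreated EIR clone 3 and untreated EIR clone 4, and 1 each of the same clones treated with GSK126. All groups share the ARID1A-mutated TOV21G background, each EIR line is 1 clone, and no label states how much GSK126 the treated libraries received or for how long. No label names separate cultures of one clone and treatment, so p-values measure only the spread between these libraries.

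A cell passes from G1 into S phase when cyclin-dependent kinases 4, 6 and 2 phosphorylate the retinoblastoma protein RB1 and free E2F factors, which turn on genes for DNA replication. Later, FOXM1 and MYBL2 turn on the genes of G2 and mitosis, whose products build the spindle, attach chromosomes to it and trigger their separation. Because these transcripts are made in particular phases, their level in a culture follows both how many cells are in that phase and how much RNA each such cell holds, and bulk RNA-seq cannot tell the pair apart.

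Library totals ranged from 25479238 to 30764963 counts, and all 54 genes had at least 10 counts in every library. The lowest count was 275, for E2F1 in untreated clone 3, where counting error alone is 6.03% of the value. The epithelial keratins KRT18 and KRT8 were at 11981 to 18326 and 4419 to 8080 normalized counts and the Mullerian factor PAX8 at 3083 to 4523, but the clear cell marker NAPSA was at only 2.01 to 49.4, in the same range as the markers of other cells. The leukocyte, pericyte and fibroblast markers PTPRC, PDGFRB and DCN were between 2.01 and 49.4. The epithelial adhesion gene EPCAM was at 401 in parental cells, 394 and 492 in untreated and treated clone 3, and 0 and 1.06 in untreated and treated clone 4. The epithelial cadherin CDH1 was at 6.04 in parental cells, 99.99 and 146 in clone 3 and 2.03 and 4.23 in clone 4. Both genes separated the clones. Across expressed genes (mean normalized count of at least 100), the log2 ratio to the parental library followed transcript GC content in every EIR library, with medians of 0.43 to 0.58 at 40% GC or less and of -0.58 to -0.40 above 60% GC. It also followed transcript length, most of all in treated clone 4, where the median was -0.32 for genes with a longest transcript up to 2000 bases and 0.32 above 8000 bases. Fits that correct for GC content, or for GC content and length, are therefore given for EIR against parental cells where they made or ended a call among the 54 genes.

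Counts of the 54 genes made up 0.817% of all counts in parental cells and 1.06% to 1.08% in the 4 EIR libraries. Genes with many counts weigh most in this share. TOP2A went from 13091 raw counts in parental cells to 26071 to 35466 in EIR libraries, and CENPF from 9949 to 21524 to 30317. The median log2 fold change of the 54 was 0.05, with 31 above 0 and 23 below. On a scale of normalized counts per kilobase of longest transcript, averaged over the 5 libraries, CCNB1 (cyclin B1) stood highest at 8457, followed by the replication clamp PCNA at 6491, topoisomerase II alpha TOP2A at 4991 and the ubiquitin-conjugating enzyme UBE2C at 3976. The per-kilobase ranges of CCNB1 (5979 to 10090) and PCNA (6058 to 7309) over the libraries overlapped, as did those of TOP2A (2315 to 6155) and UBE2C (3408 to 4653). At the other end stood E2F2 at 157 and E2F1 at 118, with CDT1, E2F8, E2F7 and E2F3 between 211 and 218 and overlapping in range.

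Promoters of these genes carry short elements that textbook models tie to their phase. E2F sites (here TTCCCGC or TTGGCGC) are typical of S phase genes, whereas the cell cycle genes homology region (CHR, here TTTGAA) and CCAAT boxes are elements of many G2 and mitotic genes. RefSeq promoter sequence (GRCh38.p14, 250 bases before to 50 after the start, both strands searched, first listed start of each gene) was matched for 43 of the 54 genes. A CHR was present in 8 of 11 spindle, kinetochore and mitotic exit genes (72.7%), 3 of 9 G2 and mitotic entry genes and 0 of 10 replication origin and helicase genes, against 15.4% of all 27305 promoters. An E2F site was present in 7 of 10 replication origin and helicase genes, 5 of 9 G1 and S entry genes and 2 of 11 spindle genes (18.2%), against 9.33% of all promoters. A CCAAT box was present in 30 of 43 (69.8%) against 35.7%, and was as frequent among replication origin and helicase genes (8 of 10) as among spindle genes (9 of 11), with 6 of 9 G2 and mitotic entry genes and 4 of 9 G1 and S entry genes. The 100 bases before the start are shown for 6 genes named in the results, 4 from mitosis and 2 from replication, with CHR, CCAAT and E2F letters in capitals. Each of these stretches holds such elements, whereas CENPE, CDK6, MYBL2 and CCNE1, also named in the results, had none of them in the searched window.
CENPF (chr1:214603095-214603194, plus strand): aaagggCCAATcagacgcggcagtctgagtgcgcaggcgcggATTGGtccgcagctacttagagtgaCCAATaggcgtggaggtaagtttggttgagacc
TOP2A (chr17:40417897-40417996, minus strand): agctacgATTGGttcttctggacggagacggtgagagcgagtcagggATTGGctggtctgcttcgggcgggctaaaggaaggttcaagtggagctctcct
CCNB2 (chr15:59105046-59105145, plus strand): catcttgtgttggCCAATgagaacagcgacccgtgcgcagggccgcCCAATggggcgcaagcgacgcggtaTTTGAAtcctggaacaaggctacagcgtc
MKI67 (chr10:128126424-128126523, minus strand): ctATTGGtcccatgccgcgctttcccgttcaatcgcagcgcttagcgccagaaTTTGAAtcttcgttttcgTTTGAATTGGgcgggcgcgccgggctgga
CDT1 (chr16:88803689-88803788, plus strand): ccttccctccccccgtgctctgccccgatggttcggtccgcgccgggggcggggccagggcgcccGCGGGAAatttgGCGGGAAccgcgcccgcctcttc
MCM6 (chr2:135876444-135876543, minus strand): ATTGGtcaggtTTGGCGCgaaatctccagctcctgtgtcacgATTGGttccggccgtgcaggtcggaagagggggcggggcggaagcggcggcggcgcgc
CCNB2 has its CHR at -29, counting -1 as the base before the start, and MKI67 has one at -47 and one at -29, the latter sharing a base with a CCAAT box on the other strand. CENPF and TOP2A hold CCAAT boxes in this stretch and a CHR elsewhere in the searched window. A match of letters describes the sequence and does not show that a factor binds it.

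EIR cells were compared with parental cells to ask how gene expression had shifted with acquired resistance. Of the 54 genes, 11 passed the test, 6 higher and 5 lower in EIR cells. The kinetochore genes CENPE and CENPF, TOP2A, the G1 kinase CDK6, the licensing factor CDC6 and the spindle checkpoint kinase TTK were higher, by 1.69 to 3.76-fold on the mean of the 4 EIR libraries. CDT1, CDC25C, CCNB2, MYBL2 and CDK2 were lower. The 11 are 20.4% of the 54, and 25.5% of all genes tested passed (12.4% higher and 13.2% lower). In this fit the share of cell cycle genes called was thus not above the background, and with the corrections given below the share was also near the background. The median log2 fold change over the 54 genes was 0.05, and over all genes tested it was 0.0025. All 4 EIR libraries lay on one side of the parental library for 32 of the 54 genes (59.3%), 19 above and 13 below, against 72.5% of all expressed genes. These tests used DESeq2 (two-sided Wald test, Benjamini-Hochberg adjusted p under 0.05 over all genes). There is 1 parental library, so the fit takes its spread from the EIR libraries, and any property of that library cannot be told apart from the parental state.

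**Figure D1:**
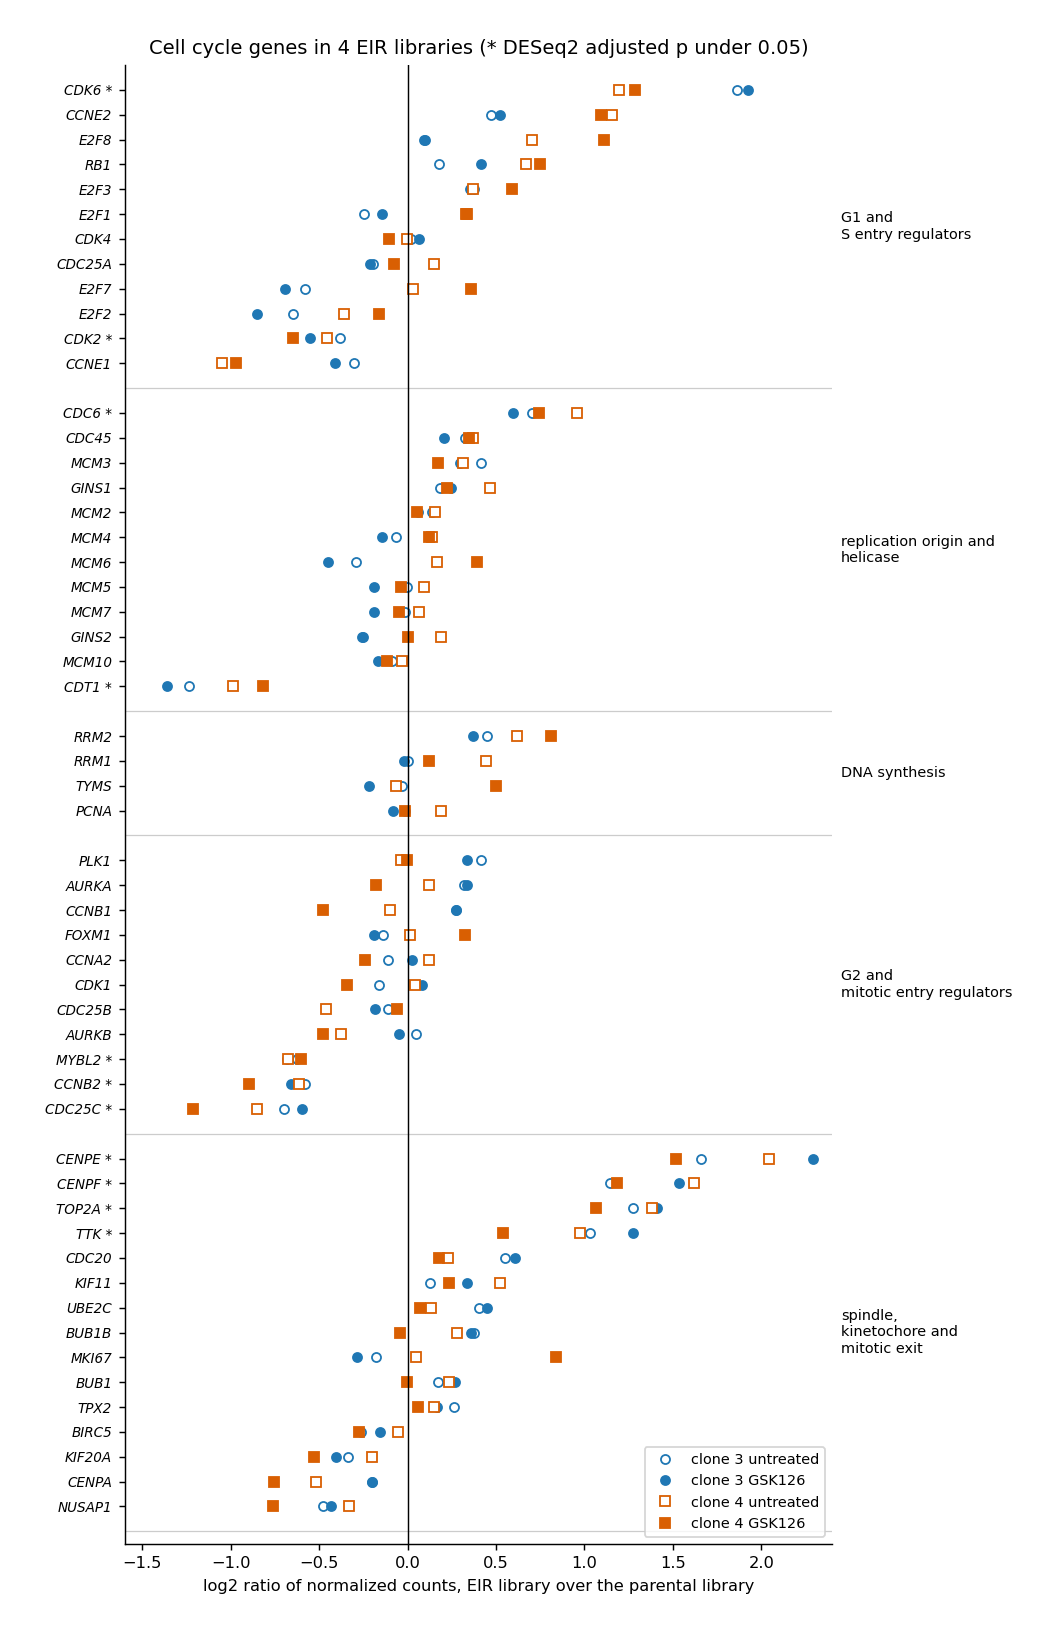
Log2 ratio of normalized counts (pseudocount 0.5) of each EIR library over the parental library for the 54 genes, grouped by role; circles are clone 3, squares clone 4, open untreated and filled GSK126-treated, 1 library each. CENPE, CENPF, TOP2A and CDK6 lie above 1 in all 4 libraries, and CDT1 lies lowest among the replication genes.

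The spindle, kinetochore and mitotic exit genes held 4 of the 6 rises, with 4 of 15 higher, 0 lower and 11 not passing, and a median log2 fold change of 0.25. CENPE (ENSG00000138778, GRCh37 chr4:104026506-104119602, minus strand), a kinesin that carries chromosomes along microtubules, had 1578 normalized counts in parental cells, 4979 and 7739 in untreated and treated clone 3, and 6517 and 4516 in untreated and treated clone 4. Every EIR library was above the parental one, and the log2 fold change was 1.91 ± 0.35 (SE, n = 4 and 1; adjusted p = 9.48e-07, DESeq2). CENPF (ENSG00000117724, GRCh37 chr1:214776528-214837917, plus strand), a kinetochore protein made in G2, had 10020 normalized counts in parental cells, 22142 and 29003 in clone 3, and 30840 and 22772 in clone 4, in the same order of treatment. The clones did not separate from each other in either gene, and CENPF differed from parental by 1.39 ± 0.26 (adjusted p = 4.02e-06, DESeq2).

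TOP2A (ENSG00000131747, GRCh37 chr17:38544777-38574148, minus strand), which untangles DNA before chromosomes part, went from 13185 normalized counts in parental cells to 31879 and 35050 in untreated and treated clone 3 and to 34419 and 27582 in untreated and treated clone 4. It was the most abundant of the 54 genes by raw count in all 4 EIR libraries, and its log2 fold change was 1.29 ± 0.20 (adjusted p = 1.53e-08, DESeq2). TTK (ENSG00000112742, GRCh37 chr6:80713604-80752244, plus strand), the kinase that holds cells until chromosomes are attached, was at 1817 in parental cells, 3717 and 4388 in clone 3 and 3576 and 2639 in clone 4. Its log2 fold change of 0.98 ± 0.31 passed (adjusted p = 0.00959, DESeq2) but did not with the GC correction (0.52, adjusted p = 0.189). CENPE, CENPF and TOP2A passed with the GC correction, at log2 fold changes of 1.19, 1.09 and 0.84, and with GC and length corrected together, at 1.13, 0.99 and 0.83. They are GC-poor (35.0%, 40.8% and 38.7%) and have long transcripts (8742, 10290 and 5695 bases), and their fold changes were smaller after either correction.

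The proliferation marker MKI67 (ENSG00000148773, GRCh37 chr10:129894923-129924687, minus strand) did not pass. It had 10620 normalized counts in parental cells, 9396 and 8704 in untreated and treated clone 3, and 10977 and 19000 in untreated and treated clone 4. The treated clone 4 library thus stood apart from the other 4 libraries, and the log2 fold change of 0.18 ± 0.45 had an adjusted p of 0.817 (DESeq2). MKI67 has the longest transcript of the 54 genes, 12716 bases, and treated clone 4 is the library in which long transcripts stood highest against their own untreated clone (median log2 ratio 0.13 above 8000 bases). Its own log2 ratio of treated over untreated clone 4 was 0.79, and 0.58 with GC and length corrected together. The remaining spindle genes lay between log2 fold changes of -0.49 for NUSAP1, a spindle microtubule protein, and 0.40 for CDC20, the activator of the anaphase promoting complex. CDC20 passed with the GC correction (0.74, adjusted p = 0.00954, DESeq2) and so did NUSAP1, at -0.53. BUB1, BUB1B, KIF11, TPX2, UBE2C, BIRC5, KIF20A and CENPA had values from -0.40 to 0.31 and did not pass, and of these UBE2C passed with GC and length corrected together (0.48, adjusted p = 0.0490, DESeq2).

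**Figure D2:**
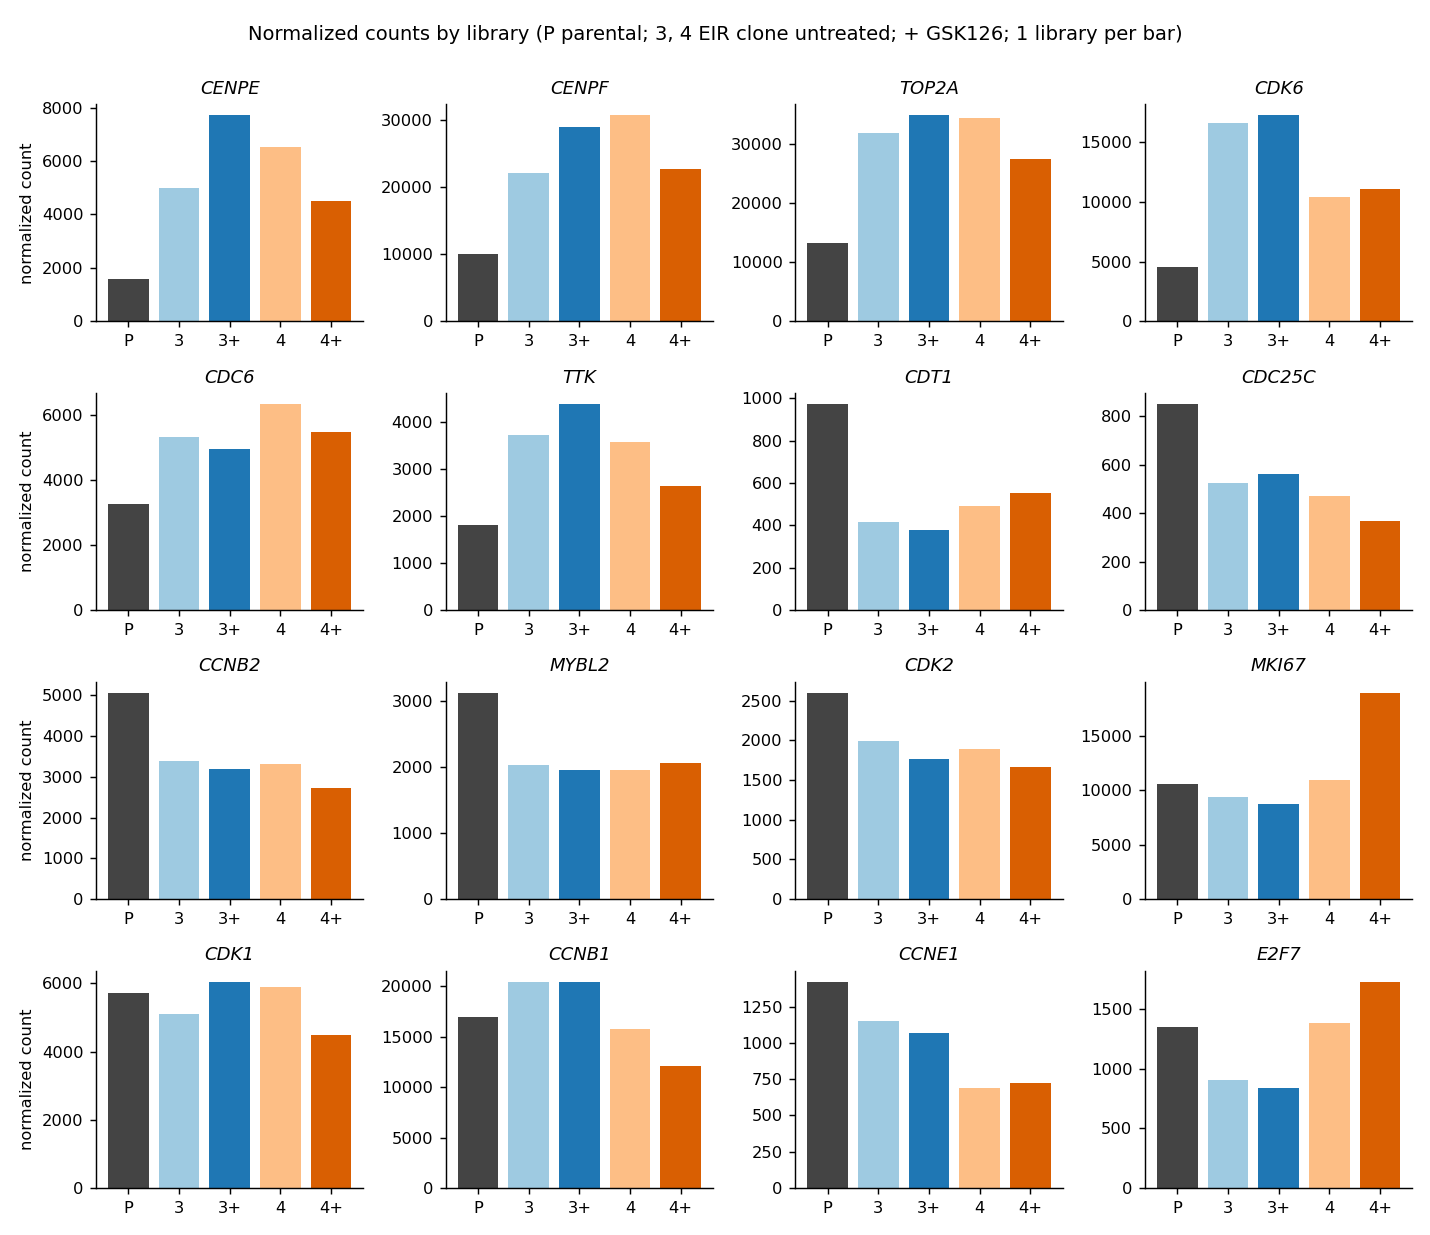
Normalized counts in each library for 16 of the genes whose values are given in the text; each bar is 1 library, P parental, 3 and 4 the untreated EIR clones and + GSK126-treated, with every axis starting at 0. CENPE, CENPF, TOP2A, CDK6, CDC6 and TTK are lowest in the parental library, CDT1, CDC25C, CCNB2, MYBL2, CDK2 and CCNE1 are highest there, and MKI67 is highest in treated clone 4 at 19000.

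Among 11 G2 and mitotic entry regulators 0 were higher and 3 were lower, with a median log2 fold change of -0.09. CCNB2 (ENSG00000157456, GRCh37 chr15:59397325-59417244, plus strand), cyclin B2, fell from 5071 normalized counts in parental cells to 3394 and 3205 in untreated and treated clone 3 and to 3309 and 2725 in untreated and treated clone 4. The 4 EIR libraries overlapped between clones and were all below the parental one, a log2 fold change of -0.68 ± 0.20 (adjusted p = 0.00443, DESeq2). The call was lost with the libraries of each clone summed (adjusted p = 0.0961, DESeq2) and with the edgeR quasi-likelihood test (adjusted p = 0.0602). CDC25C (ENSG00000158402, GRCh37 chr5:137620958-137674044, minus strand), the phosphatase that activates CDK1, was at 852 in parental cells, 525 and 562 in clone 3 and 472 and 367 in clone 4. Its change, -0.82 ± 0.31 (adjusted p = 0.0328, DESeq2), lost significance without either untreated library, in clone 3 alone, with the libraries of each clone summed and with edgeR, at adjusted p of 0.0522 to 0.182. MYBL2 (ENSG00000101057, GRCh37 chr20:42295659-42345135, plus strand), the transcription factor B-Myb, was at 3134 in parental cells and at 2029, 1954, 1960 and 2061 in untreated and treated clone 3 and untreated and treated clone 4. These 4 values lay close together (SD 52.5, n = 4) and below the parental one, and the log2 fold change was -0.65 ± 0.14 (adjusted p = 8.15e-05, DESeq2), but with a GC content of 60.3% MYBL2 no longer passed after GC correction (-0.23, adjusted p = 0.283), nor with the libraries of each clone summed (adjusted p = 0.116).

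Other regulators of the same step did not pass. CCNB1 was at 16939 normalized counts in parental cells, 20473 and 20469 in untreated and treated clone 3 and 15786 and 12132 in untreated and treated clone 4, so that the parental value lay between the clones. CDK1 (ENSG00000170312), the kinase that cyclin B activates, was at 5713 in parental cells, 5100 and 6052 in clone 3 and 5884 and 4498 in clone 4, and FOXM1 was at 1541, with 1396, 1348, 1554 and 1927 in the EIR libraries in the same order. Their log2 fold changes of 0.02, -0.09 and 0.01 were smaller than their SEs of 0.34, 0.24 and 0.27. CDK1 is the exception to this under another fit: at 35.5% GC, where most genes lay above the parental level, its GC-corrected log2 fold change was -0.76 (adjusted p = 9.04e-05, DESeq2). PLK1, AURKA, AURKB, CCNA2 and CDC25B lay between -0.20 and 0.19 and did not pass.

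Of 12 G1 and S entry regulators, 1 was higher and 1 was lower. CDK6 (ENSG00000105810, GRCh37 chr7:92234235-92465887, minus strand), which with D-type cyclins begins RB1 phosphorylation, was at 4567 normalized counts in parental cells, 16587 and 17318 in untreated and treated clone 3, and 10455 and 11118 in untreated and treated clone 4. Both clones were above the parental library and clone 3 was above clone 4, and the log2 fold change was 1.60 ± 0.36 (adjusted p = 9.71e-05, DESeq2). The value hardly moved with the GC correction (1.67) or with GC and length corrected together (1.56). Its paralog CDK4 was at 3646 in parental cells and between 3388 and 3812 in EIR cells, a log2 fold change of -0.01 ± 0.15, but it passed with GC and length corrected together (0.37, adjusted p = 0.00968, DESeq2). CDK2 (ENSG00000123374, GRCh37 chr12:56360565-56366573, plus strand), the partner of cyclin E, was at 2600 in parental cells and at 1993, 1769, 1891 and 1659 in untreated and treated clone 3 and untreated and treated clone 4. All EIR libraries were lower, but the change of -0.51 ± 0.19 (adjusted p = 0.0300, DESeq2) was lost with the GC correction (-0.31, adjusted p = 0.208) and without any one of 3 EIR libraries, and also in clone 3 alone, with the libraries of each clone summed and with edgeR, with adjusted p up to 0.288 over its alternatives.

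The cyclins E differed from parental in opposite directions without passing over the 4 EIR libraries. CCNE1 was at 1422 normalized counts in parental cells, 1151 and 1069 in untreated and treated clone 3 and 688 and 725 in untreated and treated clone 4, a log2 fold change of -0.65 ± 0.37 (adjusted p = 0.202, DESeq2). CCNE2 was at 477 in parental cells, 662 and 687 in clone 3 and 1063 and 1020 in clone 4, a log2 fold change of 0.85 ± 0.37 (adjusted p = 0.0756). In both genes clone 3 lay between the parental library and clone 4. RB1, the brake on S phase entry, was at 2537 in parental cells, 2872 and 3382 in clone 3 and 4027 and 4260 in clone 4. Its change of 0.52 ± 0.28 did not pass (adjusted p = 0.166, DESeq2). CCNE1, CCNE2 and RB1 passed in clone 4 alone, at -1.01, 1.125 and 0.71, but not in clone 3 alone, at -0.36, 0.50 and 0.30. Over the 4 EIR libraries with the GC correction they were at -0.51, 0.41 and 0.14. E2F1, the activator that RB1 restrains, was at 302 in parental cells, 255 and 273 in clone 3 and 379 and 382 in clone 4, with the parental value between the clones. E2F2, E2F3, E2F7, E2F8 and the phosphatase gene CDC25A had log2 fold changes from -0.48 to 0.57 and did not pass.

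The replication genes were mostly close to the parental level. Of 12 origin and helicase genes, 1 was higher and 1 was lower, and both of these load the helicase onto origins. CDC6 (ENSG00000094804, GRCh37 chr17:38444131-38460909, plus strand) rose from 3275 normalized counts in parental cells to 5343 and 4958 in untreated and treated clone 3 and to 6359 and 5489 in untreated and treated clone 4. CDT1 (ENSG00000167513, GRCh37 chr16:88870197-88875666, plus strand) fell from 975 to 414 and 379 in clone 3 and to 491 and 553 in clone 4. No EIR library overlapped the parental value in either gene, and the log2 fold changes were 0.76 ± 0.21 for CDC6 (adjusted p = 0.00205, DESeq2) and -1.09 ± 0.29 for CDT1 (adjusted p = 0.00194, DESeq2). CDT1 is the most GC-rich of the 54 genes (65.3%), and with the GC correction its change was -0.55 (adjusted p = 0.254), whereas CDC6, at 44.8% GC, kept 0.71 (adjusted p = 0.00223). The helicase genes MCM2 to MCM7, MCM10, CDC45, GINS1 and GINS2 had log2 fold changes from -0.10 to 0.31 and did not pass. MCM2, MCM3 and CDC45 passed with the GC correction, at 0.46, 0.50 and 0.51.

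Of the 4 genes of DNA synthesis 0 passed. PCNA was at 8706 normalized counts in parental cells, 8612 and 8232 in untreated and treated clone 3 and 9934 and 8625 in untreated and treated clone 4, a log2 fold change of 0.02 ± 0.18. The parental value lay inside the EIR range. RRM2, the small subunit of ribonucleotide reductase, was at 8265 in parental cells and at 10692 to 14515 in EIR cells, all above, with a log2 fold change of 0.57 ± 0.23 and an adjusted p of 0.0555 (DESeq2). RRM2 passed in each clone taken alone, in a fit that leaves the difference between clones out of the spread. RRM1 and TYMS, which encode the large reductase subunit and thymidylate synthase, had log2 fold changes of 0.15 and 0.07.

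**Figure D3:**
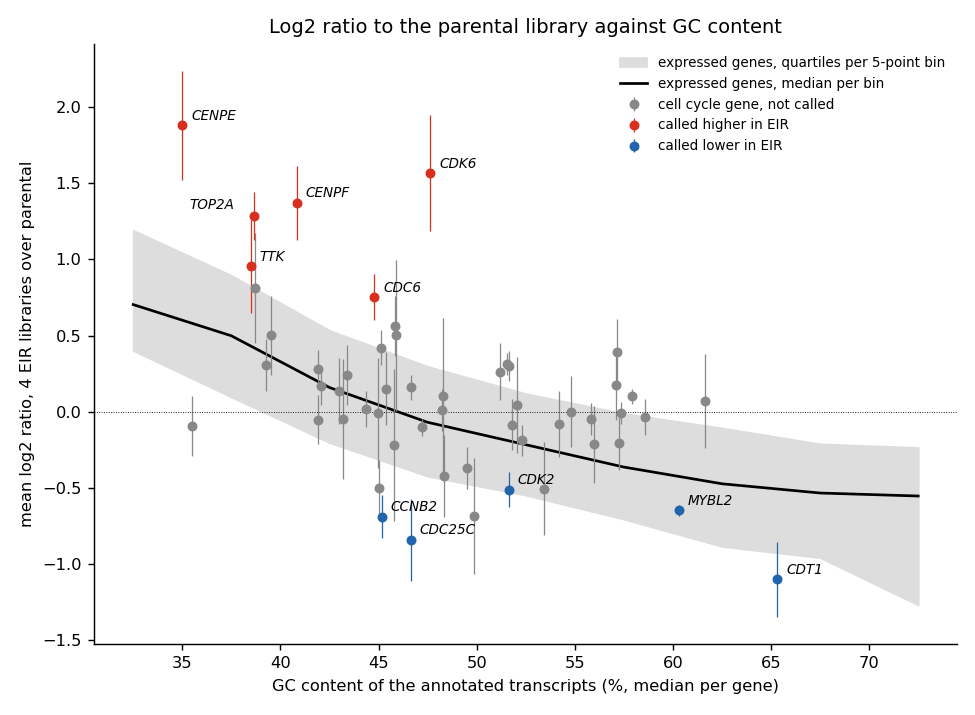
Mean log2 ratio of the 4 EIR libraries over the parental library against transcript GC content; points are the 54 genes with bars of 1 SD over the 4 libraries, the line is the median of all expressed genes (mean normalized count of at least 100) in bins of 5 percentage points and the band their quartiles. The line falls from 0.70 at the lowest GC bin to -0.55 at the highest; CDK6, CDC6, CENPE, CENPF, TOP2A and TTK lie above the band, CCNB2, CDC25C and CDT1 below it, and MYBL2 and CDK2 lie within it.

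With the GC correction 13 of the 54 genes passed, 9 higher and 4 lower, where 19.6% of all genes did. With GC and length corrected together 15 passed, 11 higher and 4 lower, where 22.6% of all genes did. In both corrected fits, as in the fit without correction, the share of the 54 was near that of all genes, and no enrichment is read from it. CDK6, CDC6, CENPE, CENPF, TOP2A, CCNB2 and CDC25C passed in all 3 fits. CDT1, MYBL2, CDK2 and TTK passed only without a correction, and MCM2, MCM3, CDC45, CDK1, CDC20 and NUSAP1 only with either one. CDK4 and UBE2C passed only with GC and length corrected together. With the libraries of each clone summed 7 passed, and CDT1 was the 1 lower gene among them. The edgeR quasi-likelihood test called 6 of the 54, CDK6, CDT1, MYBL2, CENPE, CENPF and TOP2A, where it called 5.73% of all genes. That share is over 30476 genes, a larger set than the 16288 tested with DESeq2. It takes in genes with few counts, unlike the 54, so the share of the 54 cannot be set against it. In clone 3 alone against parental 14 genes passed and in clone 4 alone 18, both from the same fit of all 5 libraries by clone. Spread in that fit comes from the treated and untreated library of each clone, and the difference between clones is left out of it. Over all genes the calls also rose, from 4157 with the 4 EIR libraries as a group to 4925 and 5368. Of the 54, 10 passed in both, namely CDK6, CDC6, CDT1, RRM2, CCNB2, MYBL2, TTK, CENPE, CENPF and TOP2A. E2F2, E2F7, CDC20 and UBE2C passed in clone 3 alone only, and CDK2, CCNE1, CCNE2, RB1, E2F8, CDC25C, CENPA and NUSAP1 in clone 4 alone only. Exons of 14 of the 54 genes overlap those of another gene with at least 10 counts, and since the use of strand in counting is not stated, reads of such pairs could not be assigned with certainty. Of the genes that passed, this touches CDC25C, which shares 293 bases with FAM53C on the other strand, and CDK2, which shares 89 with PMEL. NUSAP1, which passed with a correction, shares 195 bases with OIP5-AS1 on the same strand, whose own log2 fold change was -0.53. CDK4, which passed with GC and length corrected together, shares 1369 bases with TSPAN31 on the other strand, whose own log2 fold change was -0.37.

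Other genes of the same processes were described from 4 lists. Of 48 other replication genes, 10 were higher and 4 lower in EIR cells, with a median log2 fold change of 0.19. These were 29.2% of the list, where 25.5% of all genes tested passed, 12.4% higher and 13.2% lower. The highest were the origin recognition subunits ORC4 (3075 normalized counts in parental cells, 7147 ± 1401 in EIR cells, SD, n = 4) and ORC3 (909 against 1993 ± 434) and the fork protection gene TIPIN (673 against 1296 ± 109). The lowest were the polymerase delta subunit POLD4 (567 against 198 ± 16.5), the single-strand binding subunit RPA3 (2478 against 1451 ± 126) and the nuclease helicase gene DNA2 (2617 against 1794 ± 135). Of 68 other mitotic genes, 17 were higher and 4 lower, 30.9% of the list, with a median of 0.23. The highest were the centromere cohesion protector SGO2 (728 against 2091 ± 339), the cytokinesis gene ANLN (5801 against 16391 ± 2125) and the condensin subunit SMC2 (2737 against 7508 ± 1325), and the lowest were the NDC80 complex subunit SPC24 (3795 against 1649 ± 88.6), securin PTTG1 (9888 against 5323 ± 685) and KIF22 (5198 against 3464 ± 197). With the GC correction, where 19.6% of all genes passed, these lists gave 10 higher and 4 lower, and 12 higher and 2 lower. Their medians dropped to 0.06 and 0.12. Of the genes named, ORC3 (0.73, adjusted p = 0.0884, DESeq2) and KIF22 (-0.25, adjusted p = 0.261) no longer passed with it.

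Of 12 genes of the pocket protein and DREAM complexes, which silence cell cycle genes outside their phase, 33.3% passed, against 25.5% of all genes tested. The pocket proteins RBL1 and RBL2 went in opposite directions. RBL1 (p107) rose from 1265 normalized counts in parental cells to 2511 ± 314 in EIR cells, a log2 fold change of 0.99 ± 0.23 (adjusted p = 2.50e-04, DESeq2). RBL2 (p130), which marks resting cells, fell from 3282 to 1736 ± 111, a log2 fold change of -0.92 ± 0.17 (adjusted p = 2.10e-06, DESeq2). Both passed with the GC correction, at 0.69 and -1.16. E2F6 was higher (649 against 1003 ± 80.1) and the E2F partner TFDP2 lower (6137 against 3364 ± 567), and the other 8 did not pass. Of 16 genes of the anaphase promoting complex and its partners, 3 were higher (ANAPC4, UBE2S and CDC27) and 4 lower, led by ANAPC16 (4560 against 2360 ± 121), FZR1 (1360 against 758 ± 78.8) and ANAPC11 (693 against 391 ± 20.9). These calls were 43.75% of the list. With the GC correction 4 of the 16 passed, 2 higher and 2 lower, and UBE2S and ANAPC16 kept their calls, whereas ANAPC4, CDC27, FZR1 and ANAPC11 did not, at log2 fold changes of 0.085, 0.25, -0.37 and -0.45 (adjusted p of 0.749, 0.130, 0.209 and 0.136, DESeq2).

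The clones were compared to ask whether resistant lines of one origin differed from each other. Of the 54 genes 8 passed, 5 higher and 3 lower in clone 4, where 9.81% of all genes tested passed (3.3% higher and 6.52% lower). The genes of G1 and S entry held 5 of the 8. Cyclin E1 and CDK6 were lower in clone 4, whereas cyclin E2 and the E2F repressors E2F7 and E2F8 were higher. The median log2 fold change was 0.32 over the 12 G1 and S entry genes, 0.02 over all 54 and -0.0037 over all genes tested. DESeq2 was fitted on the 4 EIR libraries with treatment as a covariate, so that each clone is represented by an untreated and a treated library of the same line.

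CDK6 was at 16587 and 17318 normalized counts in untreated and treated clone 3 and at 10455 and 11118 in untreated and treated clone 4, a log2 fold change of -0.66 ± 0.16 (adjusted p = 5.79e-04, DESeq2). CCNE1 (ENSG00000105173, GRCh37 chr19:30302898-30315219, plus strand) was at 1151 and 1069 in clone 3 and at 688 and 725 in clone 4, -0.66 ± 0.22 (adjusted p = 0.0265). CCNE2 (ENSG00000175305, GRCh37 chr8:95891998-95908906, minus strand) was at 662 and 687 in clone 3 and at 1063 and 1020 in clone 4, 0.62 ± 0.22 (adjusted p = 0.0439). In these 3 genes the untreated and treated libraries of a clone lay close together and the clones did not overlap. CCNE2 shares 1629 exon bases with INTS8 on the other strand, whose own counts were 3839 and 3796 in clone 3 and 2935 and 2331 in clone 4.

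E2F7 (ENSG00000165891, GRCh37 chr12:77415028-77459349, minus strand) was at 906 and 839 normalized counts in untreated and treated clone 3 and at 1386 and 1735 in untreated and treated clone 4. E2F8 (ENSG00000129173, GRCh37 chr11:19245610-19263167, minus strand) was at 618 and 619 in clone 3 and at 940 and 1247 in clone 4. These atypical E2F proteins repress E2F target genes late in S phase, and their log2 fold changes were 0.82 ± 0.21 (adjusted p = 0.00195, DESeq2) and 0.80 ± 0.23 (adjusted p = 0.00620). The helicase subunit gene MCM6 (ENSG00000076003, GRCh37 chr2:136597196-136634013, minus strand) was at 2103 and 1884 in clone 3 and at 2893 and 3382 in clone 4, 0.65 ± 0.19 (adjusted p = 0.00864). None of the other 5 subunits MCM2 to MCM5 and MCM7 passed, with log2 fold changes from -0.12 to 0.23.

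CCNB1 (ENSG00000134057, GRCh37 chr5:68462962-68474072, plus strand), at 20473 and 20469 normalized counts in untreated and treated clone 3 and at 15786 and 12132 in untreated and treated clone 4, was lower in clone 4 by a log2 fold change of -0.57 ± 0.17 (adjusted p = 0.00974, DESeq2). MKI67 was higher in clone 4, at 0.67 ± 0.21 (adjusted p = 0.0187), but this rested on treated clone 4: between the untreated libraries the log2 ratio was 0.22, and without treated clone 4 the fitted value was 0.27 (adjusted p = 0.187). It was also lost with either correction, with total count scaling and with edgeR. The 11 G2 and mitotic entry genes had a median log2 fold change of -0.14, with 9 below 0 and 2 above. The 15 spindle, kinetochore and mitotic exit genes had a median of -0.12, with 10 below 0 and 5 above. Between the untreated libraries their median log2 ratio was 0.11 and between the treated ones -0.35, so its sign rested on the treated libraries. For the G2 and mitotic entry genes these medians were -0.15 and -0.34. Among genes of both lists that did not pass, AURKA, AURKB, PLK1, CDC25C, TTK, CENPA, CDC20 and UBE2C were lowest, from -0.44 to -0.33. TTK was at -0.06 between the untreated and -0.73 between the treated libraries. FOXM1 was at 0.33 and KIF11 at 0.14. The libraries of the clones did not overlap for 32 of the 54 genes (59.3%), 18 higher and 14 lower in clone 4, where 63.1% of all expressed genes did not overlap, so this share was close to the background. edgeR called 5 of the 8, namely CDK6, CCNE1, CCNE2, E2F7 and E2F8. Clone fits that left out 1 library had no treatment covariate, so that clone and treatment were partly mixed in them. Leaving out treated clone 3 ended all 8 calls, leaving out untreated clone 3 left 2, and leaving out untreated clone 4 gave 19.

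**Figure D4:**
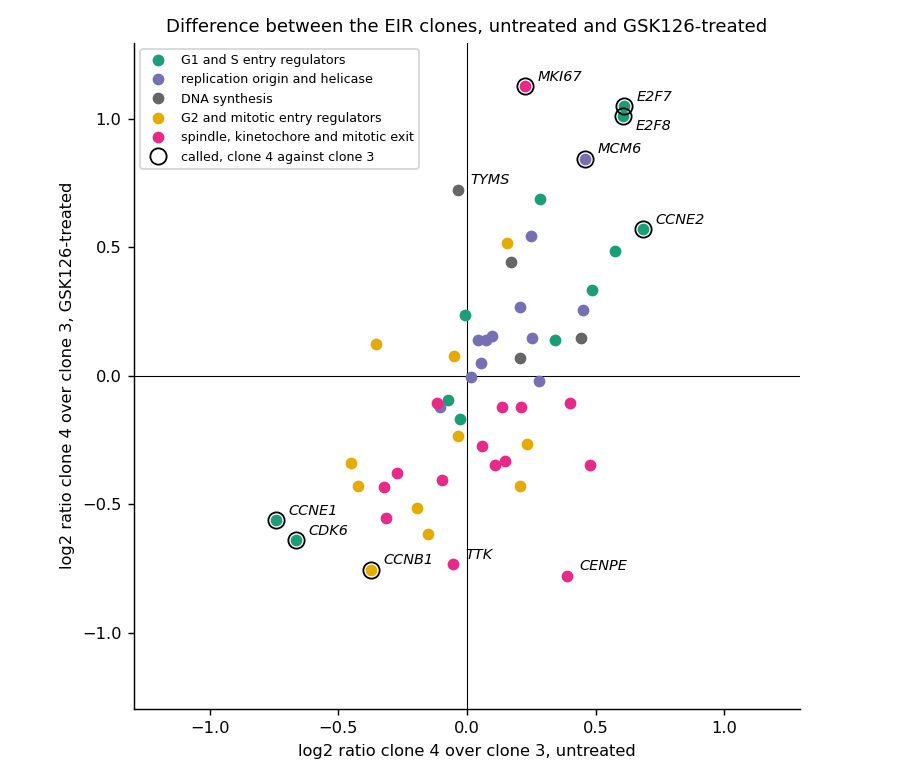
Log2 ratio of clone 4 over clone 3 in the untreated libraries (horizontal) and in the GSK126-treated libraries (vertical) for the 54 genes, coloured by role, with circles around the 8 genes that passed. CDK6 and CCNE1 lie at -0.67 and -0.74 in untreated cells, CCNE2, E2F7 and E2F8 at 0.61 to 0.68, and MKI67 moves from 0.22 untreated to 1.13 treated.

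From the other lists, GINS3 of the GINS complex (1 of 48 replication genes) was lower in clone 4 by a log2 fold change of -0.59 ± 0.19. Of the 68 other mitotic genes the condensin subunit SMC4 was higher (0.57 ± 0.18), and CKS2, which binds cyclin-dependent kinases, and ECT2, a regulator of cytokinesis, were lower (-0.56 ± 0.18 and -0.55 ± 0.17). E2F5, a repressor E2F, was lower by -0.89 ± 0.21 (adjusted p = 6.27e-04, DESeq2). Of the 16 genes of the anaphase promoting complex list 0 passed. The calls were 2.08% of the replication list, 4.41% of the mitotic list and 8.33% of the pocket protein and DREAM list, against 9.81% of all genes tested.

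GSK126-treated EIR cells were compared with untreated EIR cells to ask what the inhibitor still changed once cells were resistant. None of the 54 genes passed (0 with DESeq2 and 0 with edgeR), and 0 had an unadjusted p under 0.05 with either tool, where 0.00335% of all genes tested passed. The 1 gene called was AMIGO3, named here after its values were seen, with a log2 fold change of -4.57. The median log2 fold change over the 54 genes was -0.07, 39 of them were below 0 and 15 above, and the largest was MKI67 at 0.43 ± 0.39. With clone as a block, which pairs each treated library with the untreated library of the same clone, 0 of the 54 passed and 0 had an unadjusted p under 0.05. With 2 libraries a group, the intervals are wide. Without the block the SE of the log2 fold change was 0.18 for MCM2, which varied little, and 0.43 for E2F8. With the block these SEs were 0.16 and 0.23, since the fit without it leaves the difference between clones in the spread.

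Within the clones, treated over untreated log2 ratios spanned -0.20 to 0.64 for clone 3 and -0.53 to 0.79 for clone 4. They had the same sign in both clones for 22 genes, lower in both for 18 and higher in both for 4. Of the 12 origin and helicase genes 8 were lower in both clones, at medians of -0.11 and -0.11. With total count scaling, which put the median of all expressed genes at 0.12 in clone 4, 2 were lower in both, and the clone 4 median was 0.049 with 9 of 12 higher. Of the 15 spindle, kinetochore and mitotic exit genes, 11 were higher with treatment in clone 3 and lower in clone 4, at medians of 0.06 and -0.29. The 68 other mitotic genes had medians of 0.06 and -0.22, with 45 higher in clone 3 and 58 lower in clone 4, and all expressed genes had medians of 0.033 and -0.033, with 6784 of 11564 higher in clone 3 and 6383 lower in clone 4. CENPE changed by a log2 ratio of 0.64 in clone 3 and -0.53 in clone 4, CENPF by 0.39 and -0.44, TTK by 0.24 and -0.44, TOP2A by 0.14 and -0.32 and CDK1 by 0.25 and -0.39. The ratio to untreated cells also followed GC content in opposite directions in the clones, with medians over all genes at 40% GC or less of 0.12 in clone 3 and -0.18 in clone 4. With the GC correction the 15 spindle genes had medians of 0.036 and -0.20, and 11 were again higher in clone 3 and lower in clone 4, with CENPE at 0.48 and -0.31. With total count scaling 8 were, and the medians were 0.032 and -0.14. With 1 library per clone and treatment these ratios have no replicate.

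**Figure D5:**
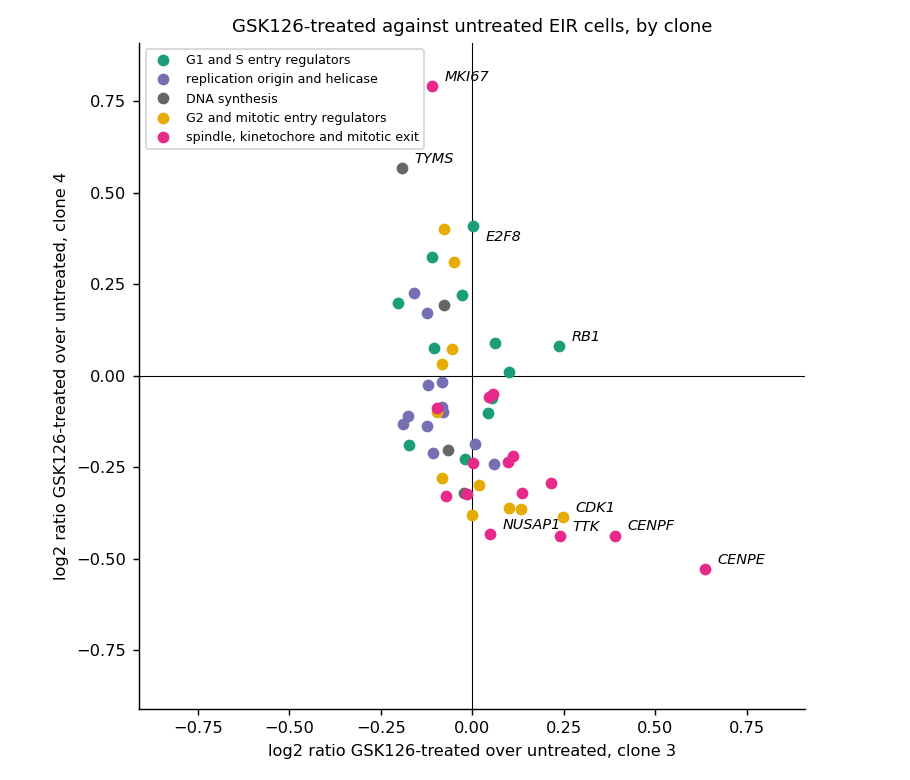
Log2 ratio of GSK126-treated over untreated cells in clone 3 (horizontal) and clone 4 (vertical) for the 54 genes, coloured by role, 1 library per clone and treatment. Spindle genes fall mostly in the lower right, with CENPE at 0.64 and -0.53, and MKI67 stands alone at the top, at -0.11 in clone 3 and 0.79 in clone 4.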

How the data were processed

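RNA-seq of total RNA was analysed in 5 libraries (1 parental, 2 untreated EIR and 2 GSK126-treated EIR), grouped by their labels. The authors aligned reads to hg19 with bowtie2 and estimated gene counts with RSEM on Ensembl annotation. The estimated counts deposited for 30476 genes were whole numbers, not normalized, and were used as they stood. RSEM was named as version 1.2.3 in the submitters' processing notes. Strand use in counting is not given in the sources used here. Names, positions, GC content and longest transcript length came from GENCODE release 44 on GRCh37, the assembly of hg19. Promoter sequences came from RefSeq (GRCh38.p14), matched by symbol.

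Counts were fitted over all genes with DESeq2 1.42.0 in R 4.3.3 (median-of-ratios size factors, Wald test, adjusted p under 0.05), after the study's methods. EIR against parental used all 5 libraries. The other comparisons used the 4 EIR libraries, clone 4 against clone 3 with treatment as covariate. Clone fits that left out 1 library had no such covariate. Fits were tested on simulated data. Ratios used a pseudocount of 0.5. Alternatives were edgeR 4.0.16 (quasi-likelihood), TMM and total count scaling, a filter of 10 counts in 2 libraries, loess correction for GC content, single clones, summed clones, a replicate block and leaving out each EIR library. Correction for GC content and length together was added after seeing the data. Single-clone results came from the same fit of all 5 libraries by clone. Clone numbers pair the treated and untreated libraries because they come from the same clone; deviations from treatment means correlated at r = 0.86 over 11465 genes.

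Members and gene lists were chosen with earlier results of these data known. Any of the 54 genes could be named; from the other lists, up to 3 called genes in each direction with the largest change and a mean of at least 100 normalized counts were named. UHRF1 and PECAM1 were not matched by symbol. Depth was 25479238 to 30764963 counts a library.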

Additional observations from a re-analysis of the deposited data

Results flagged for a closer look

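Of the 54 genes, E2F3, an activator E2F, had 1 EIR library far from the other 3: 1294 normalized counts in treated clone 4. Chance alone gives such a gap in about 1 of 20 groups. The 8 genes that differed between clones by the test above were CDK6 (log2 fold change of clone 4 over clone 3 -0.66), CCNE1 (-0.66), CCNB1 (-0.57), CCNE2 (0.62), E2F7 (0.82), E2F8 (0.80), MCM6 (0.65) and MKI67 (0.67).

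For 2 genes the treated over untreated log2 ratio was at least 0.25 in size and of opposite sign in the clones. CENPE was at 0.64 in clone 3 and -0.53 in clone 4. CENPF was at 0.39 in clone 3 and -0.44 in clone 4. The difference between the clones was not tested, since each clone has 1 library per treatment.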

How the results depend on the processing

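For EIR against parental cells, 11 of the 54 genes passed, 6 with edgeR, 7 with the libraries of each clone summed, 18 with clone 4 alone and 9 to 13 leaving out 1 EIR library. Over all genes 4157 passed, 1746 with edgeR, 1914 with summed clones, 5368 with clone 4 alone and 2838 to 4022 leaving out 1 library. The median log2 fold change of the 54 was 0.05, and 0.14 with the GC correction, 0.15 with GC and length corrected, 0.13 with total count scaling, -0.023 in clone 3 alone and 0.02 to 0.10 leaving out 1 library. CDK6, CENPE, CENPF and TOP2A passed under all 13 alternatives run. Between the clones, 8 passed, 5 with edgeR and 0 to 19 leaving out 1 library (0 without treated clone 3), and over all genes 831 to 2800, with a median over the 54 of -0.04 to 0.09. For treatment, 0 of the 54 passed under every alternative run. Over all genes 1 passed with DESeq2 (117 at an unadjusted p under 0.05), 0 with edgeR (232) and 1 to 25 leaving out 1 library (25 without untreated clone 3). With the replicate block, which pairs libraries by clone, 4 passed (AMIGO3, VGF, GPNMB and IGFBP4), and it changed no call among the 54. The median over the 54 was -0.07, 0.00067 with total count scaling and -0.14 to -0.049 leaving out 1 library. Of the values for single genes 0 reversed while called. The causes were not tested. A single parental library limits every comparison with it, and depth does not limit these genes, whose counts were at least 275.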
